A study of Caenorhabditis elegans with 4 samples.

Results

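Hox genes and DM-domain genes, among them genes that pattern the tail of the male nematode Caenorhabditis elegans, were followed on DNA microarrays of adult males. The set was a list of 10 gene symbols, 6 of Hox genes (ceh-13, lin-39, mab-5, egl-5, php-3 and nob-1) and 4 of DM-domain genes (mab-23, dmd-3, dmd-4 and dmd-5), looked up in the annotation of the probes. Of these, 9 were measured, each by 1 probe with a value on all 4 arrays, among 19214 features tested in all. No probe was matched to mab-23, and it was not analysed here. Each of the 4 arrays carried messenger RNA from a different preparation of him-5 adult males beside RNA from wild-type (wt) worms of mixed stages, which served as the reference. The labels give no age for the males beyond adult and no composition for the reference. The him-5 mutation, which raises the share of males by disturbing the X chromosome in meiosis, is carried by the males alone, so that sex, genotype and stage differ together between the sides of each ratio. Values are log2 ratios of males over reference, a direction taken from the title, the descriptions and the channel order, since no dye is named. The sperm markers go with it and not with the reverse, as 31 of 31 were higher, with a median log2 ratio of 4.72 and the lowest at 1.72. The preparations are 1 group of 4, and p-values measure the spread between them, which may be technical.

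Hox genes encode homeodomain transcription factors that give cells their position along the body. In C. elegans, ceh-13 acts towards the front, lin-39 in the middle of the body, mab-5 and egl-5 in the posterior body, and php-3 and nob-1 at the posterior end of the embryo. In the male, mab-5 and egl-5 direct the lineages that make the sensory rays of the tail, the fan-shaped organ with which males find and hold a mate. DM-domain genes encode zinc finger transcription factors named after Drosophila doublesex and C. elegans mab-3, and they carry sexual information into particular cells. Of those measured, dmd-3 drives the retraction of the tail tip in males, dmd-5 acts in neurons of the male mating circuit, and dmd-4 acts in neurons whose wiring differs between the sexes. Much of this patterning takes place in embryos and larvae, stages that a mixed population can hold and a preparation of adults should not.

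As deposited, the Hox genes in males were level with the reference or below it, and the DM-domain genes dmd-3 and dmd-5 were above it. All 6 Hox means were below 0 (median log2 ratio -0.41), and 2 of them, ceh-13 and lin-39, were called lower in males. All 3 DM-domain means were above 0 as deposited (median 0.75), and 2 of them, dmd-3 and dmd-5, were called higher. Both of these calls were lost when the arrays were centred on ribosomal protein genes or on chemoreceptor genes. The mean of dmd-4 turned below 0 under these 2 centrings, without preparation 2 and with array weights. Calls were made with limma at a Benjamini-Hochberg adjusted p under 0.05 over all features. With 4 of the 9 measured genes called, the share was near the background, since 45.7% of all features were called, 22.1% higher and 23.6% lower. Only ceh-13 was both called and at least 2-fold from the reference, 1 of 9 against 25.3% of all features, and 6 of the 9 genes had the same sign on every array, against 63.4% of all features. The median absolute log2 ratio was 0.51 over the 9 genes and 0.55 over all features. In whole worms, fewer cells of a type and less RNA per cell cannot be told apart.

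**Figure D1:**
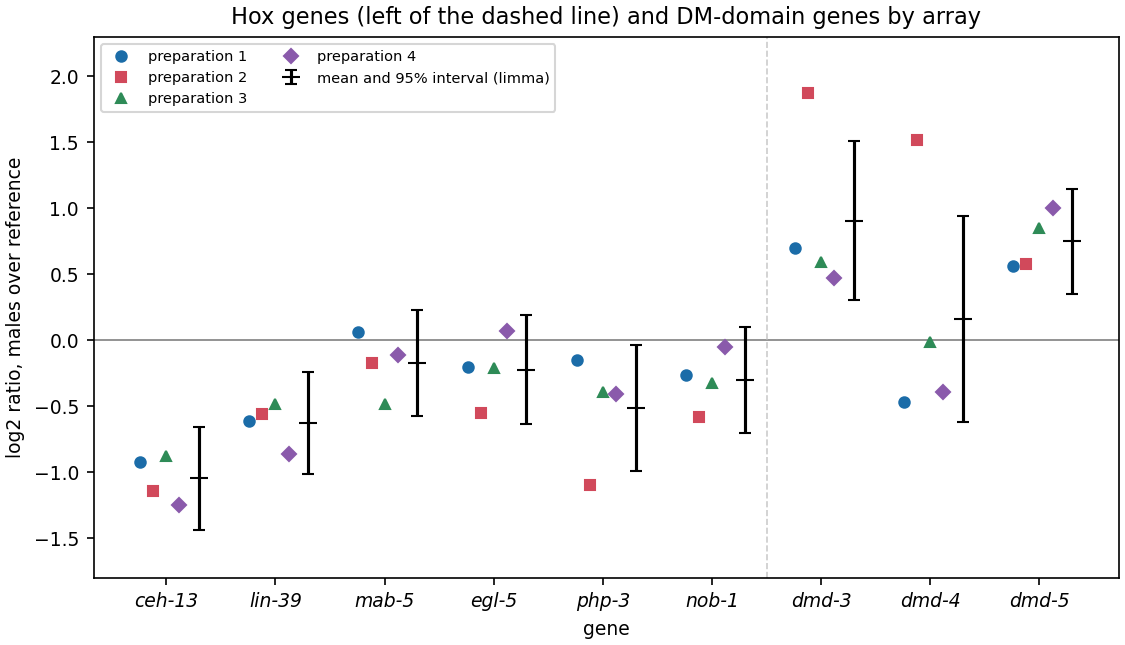
Log2 ratio of males over reference (vertical axis) for each of the 9 measured genes (horizontal axis), with 1 symbol per preparation and the mean with its 95% interval from limma. The intervals of ceh-13 and lin-39 lie below 0 and those of dmd-3 and dmd-5 above it, that of php-3 ends at -0.04, and those of the other 4 genes span 0.

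Among the Hox genes, ceh-13, the C. elegans counterpart of Drosophila labial, stood at -0.92, -1.14, -0.88 and -1.25 on preparations 1 to 4. It was the lowest of the 9 genes on every array. Its mean was -1.05 ± 0.18 (SD, n = 4), which is 2.07-fold below the reference (95% interval 1.58 to 2.71), with an adjusted p = 0.00228 by limma. Single arrays placed it between percentiles 9.01 and 16.2 of all features, a measure that a shift of a whole array does not change.

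The neighbour of ceh-13 on chromosome III is lin-39, which specifies cells of the midbody, among them the vulval precursors of hermaphrodites. Its log2 ratios were -0.61, -0.56, -0.48 and -0.86. All 4 arrays were below 0, with preparation 4 the lowest. The mean of -0.62 ± 0.16 (SD, n = 4) is 1.54-fold below the reference (95% interval 1.18 to 2.02), with an adjusted p = 0.0186 by limma. The SD of lin-39 was the smallest of the 9 genes, at percentile 8.81 of all features. With 3 arrays it was called when preparation 2 was left out and not otherwise: leaving out preparation 1 gave -0.63 (adjusted p = 0.0640), preparation 3 -0.67 (adjusted p = 0.0723) and preparation 4 -0.55 (adjusted p = 0.0620).

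The Hox genes with the best known part in the male tail, egl-5 and mab-5, were not called. As deposited they were close to the reference. For egl-5, an Abdominal-B type gene needed for the posterior rays, the values were -0.20, -0.55, -0.21 and 0.07, so that the arrays lay on both sides of 0. Its mean was -0.22 ± 0.26 (SD, n = 4) and was not called (adjusted p = 0.325 by limma), with a 95% interval from 1.55-fold lower to 1.14-fold higher in males. For mab-5, which acts in the anterior ray lineages, the values were 0.06, -0.17, -0.48 and -0.11, again on both sides of 0. Its mean was -0.17 ± 0.23 (SD, n = 4) and was not called either (adjusted p = 0.427 by limma), with an interval from 1.49-fold lower to 1.17-fold higher. Leaving out preparation 2 gave egl-5 a mean of -0.11, and leaving out preparation 3 gave mab-5 a mean of -0.07. With the arrays as deposited, a difference of 2-fold in either direction thus lay outside both intervals.

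The posterior pair of adjacent genes, php-3 and nob-1, was on the low side without a call. The log2 ratios of php-3 were -0.15, -1.102, -0.39 and -0.41, with preparation 2 far below the others, and the mean was -0.51 ± 0.41 (SD, n = 4, adjusted p = 0.0750 by limma). Without preparation 2 it was -0.32. It passed the threshold under 1 alternative, array weights, which gave preparation 2 the lowest weight (-0.38, adjusted p = 0.0489). For nob-1, which is required for the posterior of the embryo to form, the values were -0.26, -0.58, -0.32 and -0.05, all below 0, with a mean of -0.30 ± 0.22 (SD, n = 4, adjusted p = 0.181 by limma). Between the pair, php-3 was the lower on 3 of 4 arrays, by a mean log2 difference of 0.21 that was smaller than its SD of 0.28. The probes' sequences were not used here, and whether a probe reads more than 1 Hox gene was not tested.

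Within an array, the difference between genes does not depend on how that array was centred. On every array ceh-13 lay below lin-39, by a mean of 0.42 ± 0.12 (SD of the difference, n = 4), below egl-5, with a mean difference of -0.82 ± 0.34, and below mab-5, with a mean difference of -0.87 ± 0.33. An exact sign-flip test of 4 such differences cannot give a two-sided p below 1 in 8, and no test was made. Ordered from low to high, the 9 genes ran ceh-13, lin-39, php-3, nob-1, egl-5, mab-5, dmd-4, dmd-5 and dmd-3. Between neighbours in that order, the mean difference exceeded its SD for ceh-13 against lin-39 and for nob-1 against egl-5 (0.08 ± 0.04), and did not for the other 6 pairs. The profiles of nob-1 and egl-5 were the most alike of all pairs, with a root mean square difference of 0.088 over the 4 arrays. The anterior gene ceh-13 and the midbody gene lin-39 had the lowest means, and ceh-13 was below mab-5 and egl-5 on every array. The posterior php-3 was below mab-5 and below egl-5 on 3 of 4 arrays each, by mean log2 differences of 0.34 ± 0.43 and 0.29 ± 0.28 (SD, n = 4), about the size of their spread.

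Among the DM-domain genes, dmd-3, the tail tip gene, stood at 0.70, 1.87, 0.59 and 0.47 on preparations 1 to 4. All 4 arrays were above 0, and preparation 2 lay apart from the other 3. The mean was 0.91 ± 0.65 (SD, n = 4), 1.88-fold above the reference (95% interval 1.23 to 2.86), with an adjusted p = 0.0249 by limma. Without preparation 2 the mean was 0.59, a ratio that is more than 1.5 times smaller on the log2 scale, and the gene was still called. It was no longer called when preparation 1 was left out (0.98, adjusted p = 0.0526), nor when preparation 3 was (1.01, adjusted p = 0.0505). Centring the arrays on ribosomal protein genes (0.51) or on chemoreceptor genes (0.57) also ended the call. Preparation 2 also differed from the other arrays over many features: its ribosomal protein genes had a median log2 ratio of 1.101 against 0.04 to 0.33 on the others, and its correlation with them over all probes was 0.70 to 0.78 against 0.80 to 0.89 among the others. The part of these differences in the value of dmd-3 was not tested. By percentile among all features, dmd-3 ranked at 84.1, 94.7, 76.6 and 68.2 on preparations 1 to 4.

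The most even of the DM-domain genes was dmd-5, which acts in an interneuron of the male mating circuit, with 0.56, 0.58, 0.85 and 1.00. All arrays were above 0, the later pair (preparations 3 and 4, by the dates in the sample titles) above the earlier pair. The mean of 0.75 ± 0.22 (SD, n = 4) is 1.68-fold above the reference (95% interval 1.27 to 2.22), with an adjusted p = 0.0104 by limma, and with the period as a covariate the gene was still called. Without preparation 3 the call was lost (0.71, adjusted p = 0.0660). Centring the arrays on ribosomal protein genes (0.35) or on chemoreceptor genes (0.41) also ended it. The mean ratios of dmd-3 and dmd-5 differed by 0.16 ± 0.80 (SD of the difference, n = 4), far less than the spread.

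The sign of dmd-4 rested on 1 array. Its values were -0.47, 1.52, -0.01 and -0.39, below 0 on 3 arrays and well above it on preparation 2. The mean was 0.16 ± 0.92 (SD, n = 4, adjusted p = 0.706 by limma), with a 95% interval from 1.53-fold lower to 1.92-fold higher in males, and -0.29 (adjusted p = 0.207) without preparation 2. The SD was at percentile 94.2 of all features. Of the 9 genes, dmd-4 is the only one on the X chromosome.

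**Figure D2:**
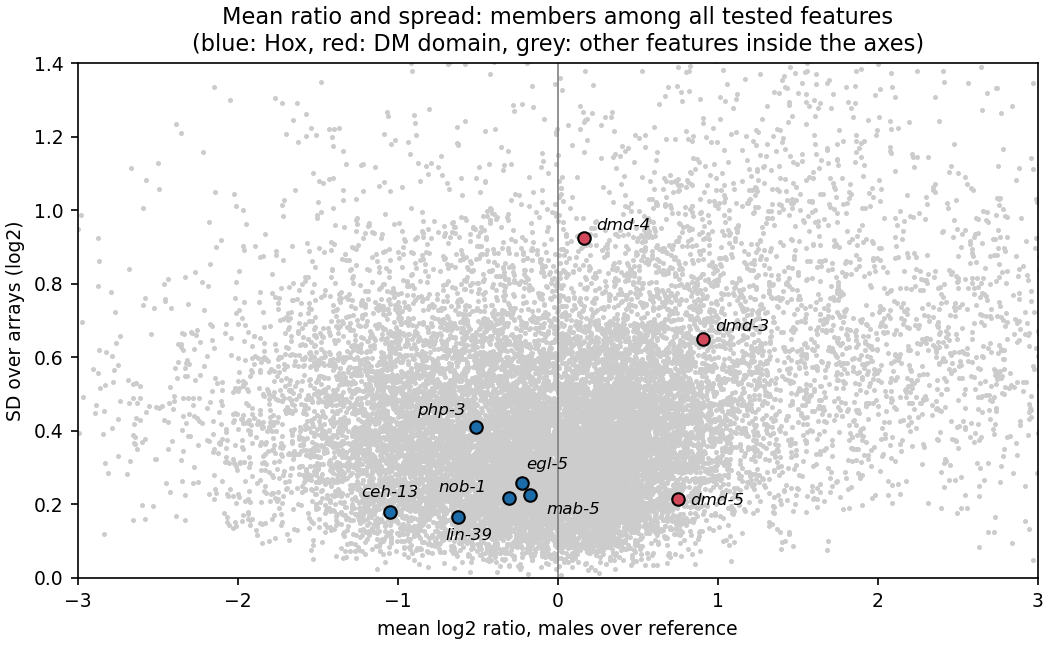
Mean log2 ratio (horizontal axis) against the SD over arrays on the log2 scale (vertical axis), with each tested feature inside the axes in grey, the Hox genes in blue and the DM-domain genes in red. Apart from php-3, the Hox genes and dmd-5 lie below the median SD of 0.40 over all features, whereas dmd-3 and dmd-4 lie above it at 0.65 and 0.92.

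The DM-domain genes did not stand together against the Hox genes. The lower of dmd-3 and dmd-5, the pair singled out here because both were called higher, lay above the highest Hox gene by 0.50, 0.76, 0.80 and 0.39 on preparations 1 to 4, which is a description and no test. The third gene, dmd-4, lay above all 6 Hox genes on preparations 2 and 3, and on preparations 1 and 4, at -0.47 and -0.39, it lay among them. The side of the reference on which each gene falls does depend on the centring. Centring each array on its ribosomal protein genes moved the median of all features by -0.40 and the share of calls that were higher from 48.3% to 26.4%. Under it dmd-5 stood at 0.35 (adjusted p = 0.427) and dmd-3 at 0.51 (adjusted p = 0.182), and both calls were lost. Centring on chemoreceptor genes moved the median by -0.34 and the share to 26.2%, with dmd-5 at 0.41 (adjusted p = 0.187) and dmd-3 at 0.57 (adjusted p = 0.0783). The same centrings moved egl-5 from -0.22 to -0.62 (ribosomal) or -0.56 (chemoreceptor), and mab-5 from -0.17 to -0.58 or -0.52, without a call. The 6 Hox means were below 0 under all 16 alternatives, and ceh-13 was called in each of these 16. Several of the 16, such as dropping the moderation of the variance, leave every member mean as deposited. For those settings only the calls could change.

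**Figure D3:**
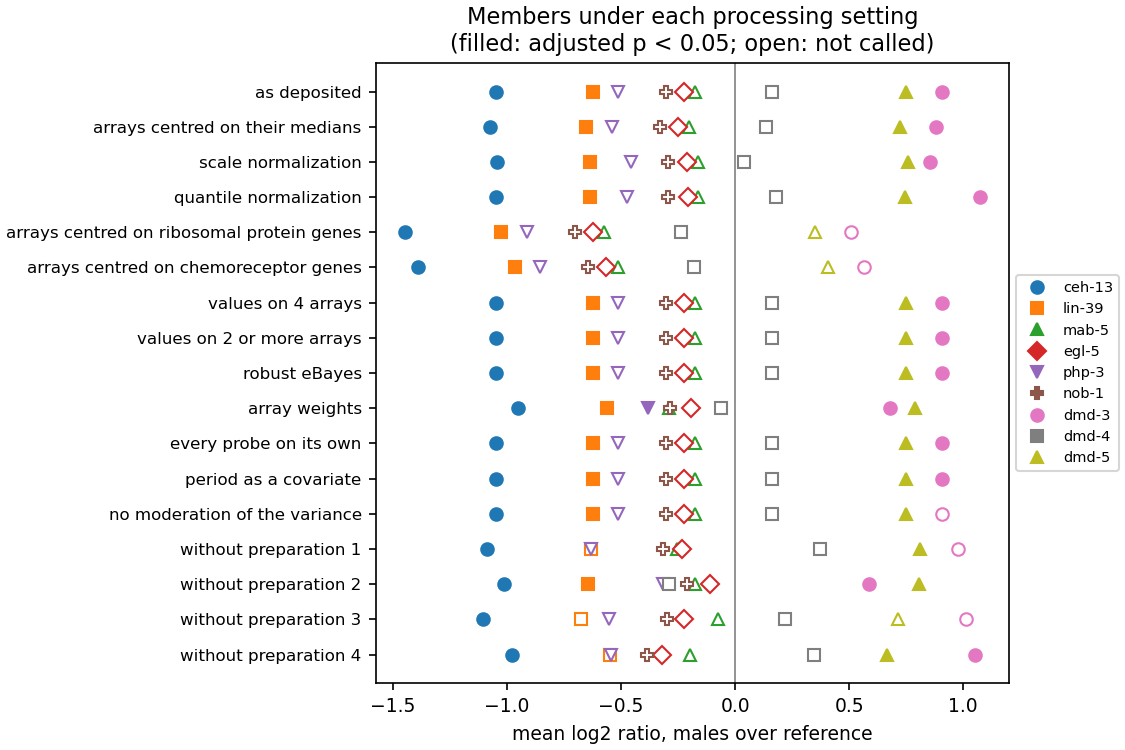
Mean log2 ratio of each gene (horizontal axis) under each processing setting (vertical axis), filled where the adjusted p is under 0.05. The points of ceh-13 stay between -1.45 and -0.95 and are filled throughout, while those of dmd-3 and dmd-5 are open under both centrings on gene families.

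The samples were checked against markers of the cells they could hold. For comparison, 22.1% of all features were called higher and 23.6% lower. The sperm markers had list medians of 4.09 to 5.07 on the 4 arrays. Of 11 male neuron markers 8 were higher and 1, cwp-4 at -0.64, was lower, with list medians of 0.65 to 1.21. Under either centring on a gene family only 4 of the 11 were called higher, and their overall median fell from 0.88 to 0.48 (ribosomal) or 0.53 (chemoreceptor). Of 19 markers of oocytes and early embryos, 16 were lower and 2 higher, sdz-6 at 2.22 and cpg-2 at 0.58, with list medians of -1.69, -1.22, -0.81 and -1.75 on preparations 1 to 4. Of 14 markers of larval moulting, 9 were lower and 1, nas-36 at 1.32, was higher, with list medians of -1.55, -2.23, -1.24 and 0.04. Most markers of oocytes and early embryos and of larval moulting were thus on the same side of the reference as ceh-13 and lin-39. The list of oocyte and early embryo markers does not separate oocytes from embryos. The part of these markers' cells and stages in the Hox ratios was not tested. On preparation 4, where ceh-13 and lin-39 had their lowest values, the oocyte and embryo median was also at its lowest while the larval median was near 0. On preparation 1 the oocyte and embryo median was almost as low, with ceh-13 at -0.92 and lin-39 at -0.61. A relation across arrays was not tested. On preparation 2, where dmd-3 was highest, the male neuron median was the lowest of the 4.

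Of 5 cofactor genes, whose products bind DNA beside Hox proteins, 2 were called lower in males and 3 were not called, where 23.6% of all features were called lower (list median -0.49, against 0.05 over all features). Without moderation of the variance neither of the 2 was called. The Pbx-type homeobox gene ceh-20 stood at -1.09, -2.79, -1.22 and -1.22, with preparation 2 apart, and a mean of -1.58 ± 0.81 (SD, n = 4, adjusted p = 0.00498 by limma). Another Pbx-type gene, ceh-40, had a mean of -1.19 ± 0.44 (SD, n = 4, adjusted p = 0.00359 by limma). The cofactor gene ceh-60 was not called at -0.43 ± 0.34 (SD, n = 4). The Meis-type gene unc-62 was not called at -0.21 ± 0.31 (SD, n = 4), a value like those of egl-5 and mab-5.

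Of 16 measured genes that regulate Hox expression or resemble regulators of it in other animals, 10 were lower and 6 were not called. Over all features, 23.6% were called lower and 22.1% higher. The median of the 16 genes was -1.101. The largest ratios were those of lin-35, the retinoblastoma homologue, at -1.53 ± 0.60, the histone demethylase gene jmjd-3.1 at -1.47 ± 0.68, and the caudal-type homeobox gene pal-1 at -1.44 ± 0.38 (SD, n = 4). The Polycomb-like gene sop-2, which restricts Hox genes to their domains, was not called at -0.03 ± 0.68 (SD, n = 4), with arrays from -0.81 to 0.75. Of 23 measured genes of Wnt signalling, the pathway that sets mab-5, lin-39 and egl-5 expression in several lineages, 14 were lower, 2 were higher and 7 were not called, with a median of -0.74. The Wnt ligand gene egl-20, which switches on mab-5 in a migrating neuroblast, stood at -1.41 ± 0.38, the APC-related gene apr-1 at -2.02 ± 0.36 and the Frizzled gene cfz-2 at -1.16 ± 0.31 (SD, n = 4). The beta-catenin gene bar-1, which acts on Hox genes in these lineages, was lower at -0.56 ± 0.34 (SD, n = 4, adjusted p = 0.0445 by limma), but not when preparation 1 (-0.51, adjusted p = 0.143), 2 (-0.58, adjusted p = 0.0711) or 3 (-0.45, adjusted p = 0.216) was left out.

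Other listed genes, of developmental timing and of the male tail, were mostly lower in males or not called. Beside them, 23.6% of all features were called lower and 22.1% higher. Of 9 measured genes of tail tip retraction and developmental timing, 6 were lower and 3 were not called, with a median of -0.64. The timing genes hbl-1 at -1.73 ± 0.33, lin-41 at -1.37 ± 0.30 and lin-46 at -1.33 ± 0.41 led them (SD, n = 4), and tlp-1, a zinc finger gene of tail tip morphogenesis, stood at -0.59 ± 0.19 (SD, n = 4). That call ended when preparation 1 (-0.57, adjusted p = 0.0882), 3 (-0.67, adjusted p = 0.0718) or 4 (-0.61, adjusted p = 0.0543) was left out. Of 15 measured genes of the rays and of male tail patterning, 7 were lower, 1 was higher and 7 were not called, with a median of -0.48. The bHLH gene hlh-2 stood at -1.49 ± 0.21 and egl-44 at -1.27 ± 0.57 (SD, n = 4). The proneural gene lin-32, whose product pairs with that of hlh-2 to make ray neurons, was not called at -0.34 ± 0.42 (SD, n = 4), and was called lower without preparation 2 (-0.54, adjusted p = 0.0408). The higher gene was ram-5, which affects ray shape, at 0.03, 1.54, 1.06 and 2.71. Its mean was 1.33 ± 1.11 (SD, n = 4, adjusted p = 0.0263 by limma), and the gene was not called when preparation 2 (1.27, adjusted p = 0.0970), 3 (1.42, adjusted p = 0.0514) or 4 (0.88, adjusted p = 0.0569) was left out.

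Of the other DM-domain genes, 4 were measured and 1 was called, dmd-7, which was lower at -0.96 ± 0.43 (SD, n = 4, adjusted p = 0.00851 by limma). The remaining 3, dmd-6, dmd-8 and dmd-10, were not called at 0.24, 0.31 and -0.30. The called DM-domain genes went both ways, with dmd-3 and dmd-5 higher and dmd-7 lower, as did all features, of which 22.1% were higher and 23.6% lower. The calls of dmd-3 and dmd-5 were lost under both centrings on a gene family. Those of dmd-3 and dmd-7 were lost without moderation of the variance. Among 51 other ceh homeobox genes, 17 were lower, 8 higher and 26 not called, against 23.6% lower and 22.1% higher over all features. Their median was -0.30. The largest ratios were those of ceh-32 at -1.72 ± 0.20, ceh-38 at 1.49 ± 1.03 and ceh-49 at -1.41 ± 0.73 (SD, n = 4). With single preparations left out, 6 to 19 of the 51 were lower and 3 to 5 higher, the fewest without preparation 3. Of 12 measured genes of Q cells, vulva and muscle, tissues in which lin-39 and mab-5 act, 2 were lower, 1 higher and 9 not called, with a median of -0.25. Their called genes were the FGF receptor gene egl-15 at -1.91 ± 0.56, the EGF receptor gene let-23 at 0.99 ± 0.57 and sex-1 at -0.78 ± 0.41 (SD, n = 4). The last encodes a nuclear receptor that takes part in counting X chromosomes, a role not tied to these tissues. It is 1 of the 2 genes of this list that were lower. Leaving out preparation 3 ended the calls of let-23 (0.87, adjusted p = 0.0653) and sex-1 (-0.69, adjusted p = 0.0955), and leaving out preparation 1 that of sex-1 (-0.70, adjusted p = 0.0725).

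**Figure D4:**
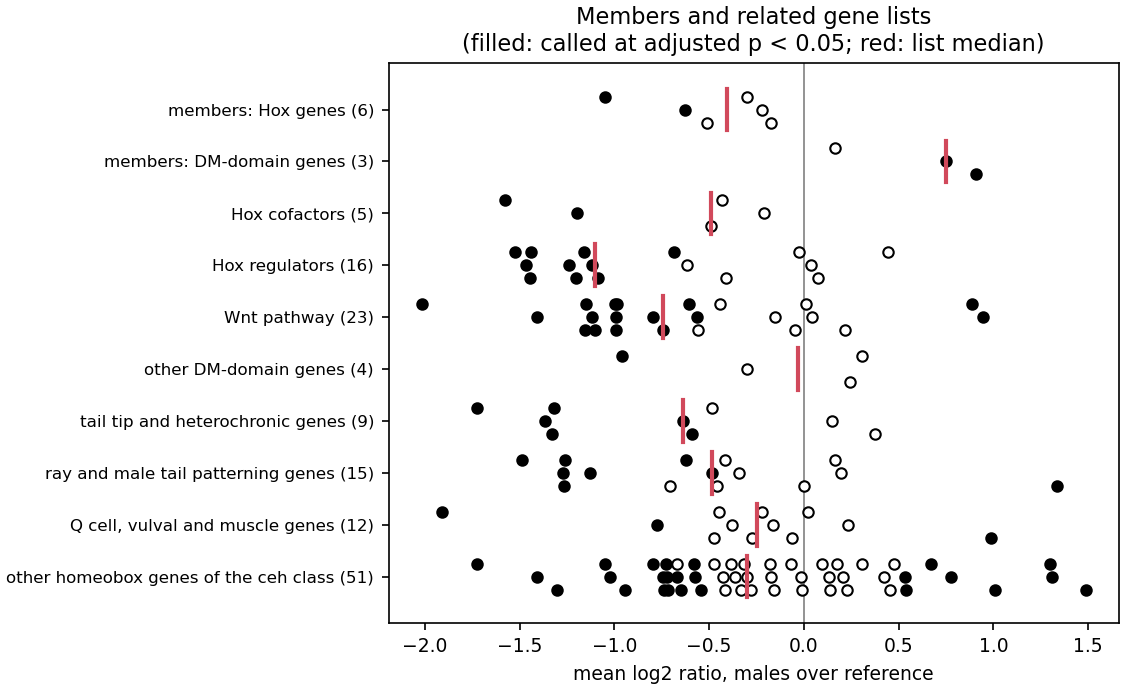
Mean log2 ratio (horizontal axis) of every measured gene of each list (vertical axis, number of genes in brackets), filled where called, with the list median in red. The median of the Hox genes is -0.41, those of the regulators and the Wnt genes are -1.101 and -0.74, and that of the 3 measured DM-domain genes is 0.75.

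The Hox genes of C. elegans lie in loose pairs on chromosome III. In the gene order of assembly WBcel235, used here for order alone, lin-39 and ceh-13 are adjacent, 1 gene separates mab-5 from egl-5, and 42 protein-coding genes span lin-39 to egl-5. Of the 38 that are not Hox genes, 29 were measured, and 7 of them were higher, 6 lower and 16 not called. That is near the 22.1% higher and 23.6% lower over all features. Their ratios ran from -1.92 for lpd-7 to 3.85 for T04A6.3, against -1.05 to -0.17 for the 4 Hox genes among them. The gene next to ceh-13 on the side away from lin-39, lgc-12, which encodes a subunit of a ligand-gated ion channel, stood at 2.20 ± 0.48 (SD, n = 4). The gene between mab-5 and egl-5, cyk-7, was not called at 0.49 ± 0.30 (SD, n = 4). Around php-3 and nob-1, 18 of the 20 nearest protein-coding genes were measured (10 on each side), from -0.55 to 0.80. Of these, 1 was higher, 2 were lower and 15 were not called, a smaller share of calls than the 45.7% over all features. The genes flanking the pair, zyg-8 and cest-12, stood at -0.02 and 0.06. The Hox ratios were thus inside the range of their neighbours in the first block, and php-3 near its lower end in the second. These neighbours were named for their position or as the extremes of their block, after their values were seen.

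**Figure D5:**
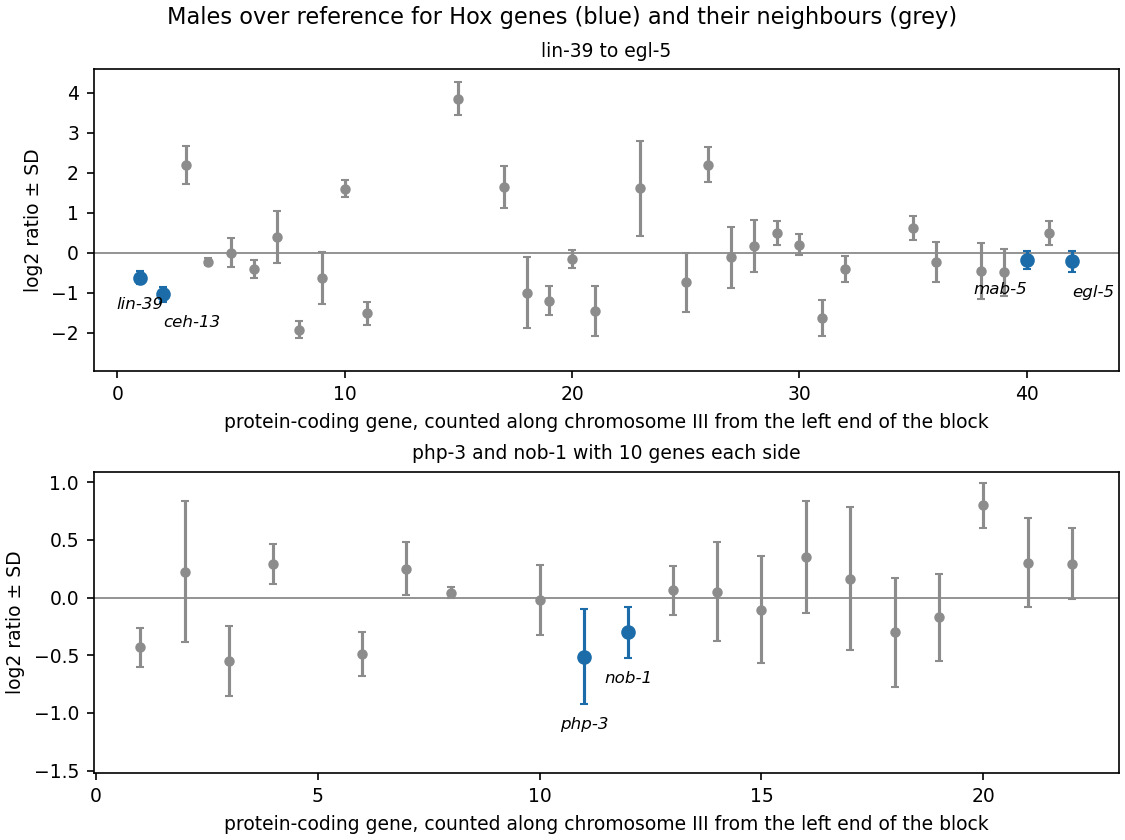
Mean log2 ratio with its SD over arrays (vertical axes) for measured protein-coding genes in their order along chromosome III (horizontal axes, counted within each block), with Hox genes in blue and neighbours in grey. In the upper block neighbours spread from -1.92 to 3.85 around Hox genes between -1.05 and -0.17, and in the lower block php-3 and nob-1 lie at -0.51 and -0.30 among neighbours between -0.55 and 0.80.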

How the data were processed

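The 10 genes, the gene lists and the tests were chosen with earlier results of these data known. The deposited values are log2 ratios of the channels of each array, which the authors had scaled per array before deposit (array medians -0.01 to 0.07); method, image analysis and filters are not given in the sources used here. Base 2 was read from the values: raised as powers of 2, 100% of those below a ratio of 3 were multiples of 0.001 (within 0.01 of a step). Per array, 19424 to 19761 probes had a value. Probes were named from the platform annotation, updated by gene identifier to WBcel235 symbols, and probes of a gene were averaged. Features with values on 3 or more arrays were fitted with limma 3.58.1 in R 4.3.3 (lmFit with an intercept, eBayes, two-sided), adjusted over all features, and the steps were tested on simulated data. There, 52% of the 2-fold and 99% of the 4-fold changes put in were called, with 10 false calls. The simulation changed 200 of 19214 features, far fewer than were called in the data. Intervals are limma's moderated 95% intervals. No reference was hybridised against itself, so its own spread is left out. Spot intensities were not used here. Besides the 9 genes, the text names up to 3 called genes per list, those with the largest ratio and a single sign. It also names 11 genes chosen in advance, of which lin-22 and mab-3 had no value here. The markers cwp-4, sdz-6, cpg-2 and nas-36 were named after their values were seen, as called against the direction of most of their list. The cofactor ceh-60 was also named after its value was seen. Other names are said to be chosen later or belong to lists of 4 or fewer.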

Additional observations from a re-analysis of the deposited data

Results flagged for a closer look

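In 4 of 49 sets of 4 array values, 1 array lay farther from the nearest other, relative to the whole range, than Dixon's critical value at the 95% level, where chance gives about 1 in 20. The log2 ratio of dmd-3 was 1.87 on preparation 2, with a gap of 0.833 of the range. The median of the 3 DM-domain genes was 1.52 on preparation 2, which is the value of dmd-4 there. The log2 ratio of ceh-20 was -2.79 on preparation 2, and that of sex-1 was -0.16 on preparation 4. No cause of these values was tested.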

How the results depend on the processing

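No paired analysis was possible because the arrays form 1 group. Of 9 genes under 16 alternatives, 128 of 144 ratios kept direction and side of the threshold. Several of the 16 leave these ratios as deposited, so that their direction could not change there. The sign of dmd-4, never called, turned under ribosomal (-0.24) and chemoreceptor (-0.18) centring, with array weights (-0.064) and without preparation 2 (-0.29), and ran from -0.29 to 0.37 over single preparations left out. That of sop-2, not called either, turned with array weights (0.13), without preparation 1 (0.07) and without preparation 2 (0.23). Without moderation of the variance dmd-3 was not called (0.91, adjusted p = 0.136), nor were ceh-20, ceh-40, lin-35, jmjd-3.1, bar-1, dmd-7, ram-5, egl-44, let-23, sex-1, ceh-38 and ceh-49. Both centrings on a gene family ended the calls of ram-5, let-23 and ceh-38 and left 0 higher calls among the other ceh genes, and the period as a covariate ended that of bar-1. The genes called numbered 4 (2 higher, 2 lower) as deposited, 2 (0 higher) under either centring on a gene family, 1 (0 higher, 1 lower) at an adjusted p under 0.01, and 3 (1 higher) without moderation. With each preparation left out in turn they numbered 1 to 4, with 0 to 2 higher and 1 to 2 lower. Over all features, 8777 were called (4242 higher, 4535 lower), 4227 (1921 higher, 2306 lower) without moderation and 5076 (2393 higher, 2683 lower) at an adjusted p under 0.01. The higher calls fell to 1624 with ribosomal and 1997 with chemoreceptor centring. Leaving out single preparations gave 5692 to 7997 calls, with 2759 to 3784 higher and 2933 to 4213 lower, the fewest without preparation 3. Precision is limited by 4 arrays, and signal over background was not used here. The cause of these changes was not tested.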
